A study of Homo sapiens with 6 samples.

Results

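The nuclear-encoded subunits of the mitochondrial respiratory chain and ATP synthase were examined in HCCC9810 cells, an established human cholangiocarcinoma (CCA) line, after treatment with isolinderalactone (ILL). Members were the rows of the count table whose symbol begins with NDUFA, NDUFB, NDUFC, NDUFS, NDUFV (without the NDUFAF assembly factors), UQCR, COX4 to COX8 or ATP5, together with SDHA, SDHB, SDHC, SDHD and CYC1. This rule gave 91 of the 19470 genes in the table. By symbol, 40 were assigned to complex I, 4 to complex II, 10 to complex III, 17 to complex IV and 20 to complex V. The rule itself uses symbols only, though it was set with earlier results of these data known. ILL, a sesquiterpene lactone found in plants of the genus Lindera, was given at 20 μM for 24 h, and the control cells received vehicle (DMSO) for the same time. Both groups were wild-type HCCC9810 cells and each had 3 RNA-seq libraries. The libraries come from 1 cell line, and nothing in the sources used here says that they came from separate cultures, so the p-values measure only the spread between these samples.

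Oxidative phosphorylation takes place in the inner mitochondrial membrane. Complex I (NADH dehydrogenase) and complex II (succinate dehydrogenase) pass electrons from NADH and succinate to coenzyme Q, complex III passes them to cytochrome c, and complex IV (cytochrome c oxidase) passes them to oxygen. Complexes I, III and IV pump protons across the membrane, and complex V (ATP synthase) uses the returning protons to make ATP. All but complex II are built from subunits of both the nuclear and the mitochondrial genome. No mitochondrially encoded subunit was analysed here.

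Because the members moved largely together, the bases upstream of 5 of them are shown, chosen as the 3 lowest fold changes among the tested members with an entry in the promoter table, a member that rose and a member of the c subunit family that fell less. The sequences are the 150 bases before the first start that the RefSeq promoter table lists for the gene, 5′ to 3′ on the gene's strand, on GRCh38.p14. For ATP5MC2 this start, and so the stretch, lies inside the gene's full span of chr12:53665170-53681423, while the other stretches end where their gene begins. They lie at chr17:48892637-48892786 on the plus strand for ATP5MC1, at chr19:29213152-29213301 on the minus strand for UQCRFS1, at chr5:1801257-1801406 on the plus strand for NDUFS6, at chr12:53676084-53676233 on the minus strand for ATP5MC2 and at chr19:55354720-55354869 on the minus strand for COX6B2. Capitals mark matches, on either strand, to the letters of the 8 factor motifs searched.
ATP5MC1: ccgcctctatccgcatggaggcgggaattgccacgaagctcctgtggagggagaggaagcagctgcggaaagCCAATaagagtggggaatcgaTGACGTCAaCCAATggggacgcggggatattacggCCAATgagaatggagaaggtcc
UQCRFS1: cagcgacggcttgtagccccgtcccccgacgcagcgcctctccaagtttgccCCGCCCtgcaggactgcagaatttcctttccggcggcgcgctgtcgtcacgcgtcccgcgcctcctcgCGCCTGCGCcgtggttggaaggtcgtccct
NDUFS6: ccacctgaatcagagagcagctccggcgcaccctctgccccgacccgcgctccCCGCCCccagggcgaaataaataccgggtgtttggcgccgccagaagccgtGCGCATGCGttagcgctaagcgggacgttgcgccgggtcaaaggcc
ATP5MC2: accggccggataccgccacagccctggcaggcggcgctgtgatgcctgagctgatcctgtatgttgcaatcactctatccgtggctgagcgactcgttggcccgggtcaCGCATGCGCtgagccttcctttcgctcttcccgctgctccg
COX6B2: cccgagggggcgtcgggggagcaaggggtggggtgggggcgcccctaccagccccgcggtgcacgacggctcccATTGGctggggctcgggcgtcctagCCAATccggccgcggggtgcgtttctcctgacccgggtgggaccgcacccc
The stretch of ATP5MC1 held 3 CCAAT boxes and a cyclic AMP response element, TGACGTCA. Those of UQCRFS1 and NDUFS6 each held 1 match to the NRF1 letters GCGCANGCG and 1 to the SP1 letters GGGCGG, and that of ATP5MC2 held 1 NRF1 match. COX6B2, which rose, held 2 CCAAT boxes and neither of the other motifs in this stretch.

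Motifs were counted over the 250 bases before the start, on both strands, in the 67 tested members that have an entry in the RefSeq table, with the first start listed for each gene. NRF1 is a transcription factor known for activating respiratory chain genes, and its letters were found in 20 of the 67 members, or 29.9%, against 12.8% of the 10482 tested genes with an entry and 7.02% of all 27305 promoters in the table. The ETS letters CCGGAAG, which GABP binds, were found in 17 members, or 25.4%, against 15.8% of tested genes and 8.82% of all promoters. The cyclic AMP response element was found in 4 members (ATP5MC1, ATP5ME, NDUFA10 and NDUFB2), or 5.97%, against 2.82% of tested genes and 1.77% of all promoters. The CCAAT box was found in 32.8% of members and 34.8% of tested genes, with 33.0% of all promoters. The SP1 letters were found in 58.2% of members, 67.5% of tested genes and 42.3% of all promoters. The E-box CACGTG was found in 8.96% of members, 8.69% of tested genes and 6.49% of all promoters. The ERR letters CAAGGTCA were found in 2 members, or 2.99%, against 0.725% of tested genes and 1.17% of all promoters. The YY1 letters AAGATGGCG were found in 1 member, or 1.49%, against 1.05% of tested genes and 0.641% of all promoters. The median log2 fold change with ILL was -0.50 in members with an NRF1 match and -0.44 in those without one. The order was the opposite for ETS (-0.40 against -0.47), SP1 (-0.40 against -0.48) and the E-box (-0.35 against -0.47). It was the same as for NRF1 for the cyclic AMP response element (-0.48 against -0.44) and the CCAAT box (-0.47 against -0.44). The ERR letters (-0.64 against -0.44) and the YY1 letters (-0.53 against -0.44), found in 2 members and 1 member, also had the order of NRF1. These are descriptions, with no test. Matches of different motifs were counted separately where they overlapped, and a match describes the letters only.

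Library totals ranged from 34282764 to 37758569 counts. The FPKM values equal the counts per gene length and library total in 100% of 88055 nonzero values within 0.1%. The chi-square per degree of freedom between libraries of 1 group was 5.15 to 11.8, more than counting noise gives. Cholangiocyte markers were present, with 7 of 10 at a mean of at least 1 FPKM and a summed level of 5079 to 5203 FPKM in control and 4585 to 4835 FPKM in ILL libraries, while CFTR had at most 3 counts in every library. Summed markers of hepatocytes were at 9.76 to 11.8 FPKM in control and 9.02 to 15.4 FPKM in ILL libraries, those of fibroblasts at 2.63 to 2.88 and 3.27 to 3.79 FPKM, and those of endothelial cells at 0.195 to 0.315 and 0.293 to 0.351 FPKM. The summed level of the 6 immune markers was 22.8 to 25.4 FPKM in control and 65.0 to 67.9 FPKM in ILL libraries, with CD68 the only one at a mean of at least 1 FPKM over all 6 libraries and CD3E at 3 counts or fewer throughout. The part of these levels in the results below was not tested.

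The comparison of ILL-treated with control cells asked which subunit genes changed in amount. Most subunit genes of every complex were lower with ILL, by a moderate amount. Of the 84 members with enough counts to be tested, 74 fell, 3 rose and 7 did not pass edgeR's quasi-likelihood test at an adjusted p-value under 0.05. The share that fell was 88.1%, against 36.9% of all 13066 genes tested, and the 3 that rose stand against 36.2% of all genes tested. The median log2 fold change of the tested members was -0.46, or 72.5% of the control level, with quartiles of -0.59 and -0.24, while the median over all genes tested was -0.0012. All 3 ILL libraries lay below all 3 control libraries in 72 members, against 38% of all genes tested. In bulk RNA, fewer cells of a kind and less RNA per cell cannot be told apart, and all values are shares of a library.

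**Figure D1:**
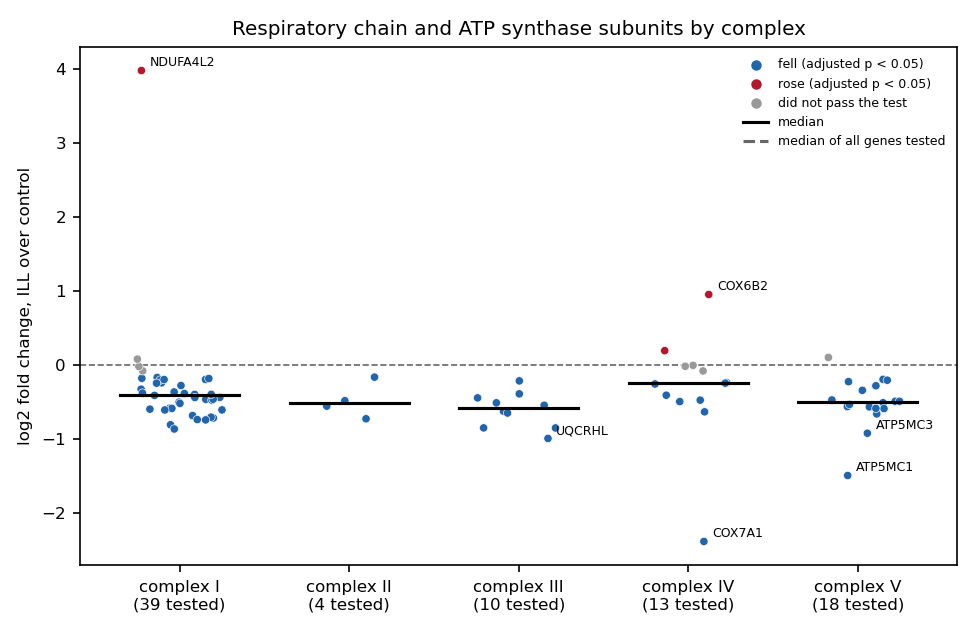
Log2 fold change of each tested subunit gene (vertical axis, ILL over control) by complex (horizontal axis), with points coloured by the edgeR call, a black bar at each complex's median and a dashed line at the median of all genes tested. Most points of complexes I, II, III and V lie between -1 and 0, while complex IV has its median nearest to 0 at -0.25 and holds both COX6B2 at 0.95 and COX7A1 at -2.39.

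Few members changed by more than 2-fold. By the study's cutoffs, which ask for a change above 2-fold besides an adjusted p-value under 0.05, 2 members were lower (ATP5MC1 and COX7A1) and 1 was higher (NDUFA4L2, a gene of few counts described below). Of all genes tested, 11.4% were lower and 12.5% higher by this rule. UQCRHL and COX6B2 lay close to the fold cutoff at log2 fold changes of -0.99 and 0.95, and both passed it without ILL replicate 1 or without control replicate 3, which gave 5 genes past the cutoffs. Across the 80 members that are not alternative isoforms, the log2 fold change had a Spearman correlation of -0.05 with the control level in FPKM and of -0.06 with gene length, which are descriptions over genes of the same libraries. Control levels of the members ranged widely per length, from 1339 FPKM for COX8A, the highest, to 8.51 FPKM for NDUFV3, the lowest outside the alternative isoforms.

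By summed read count, complex III was again the lowest against its control level and complex IV the nearest to it. Complex I members summed to 4431, 4471 and 4420 CPM in the control libraries and to 3314, 3176 and 3461 CPM in the ILL libraries, which is 74.7% of the control mean. The sum with ILL was 71.0% of control for complex II, 68.8% for complex III, 83.8% for complex IV and 70.6% for complex V. All members together took 14348, 14442 and 14190 CPM in control and 10610, 10138 and 11129 CPM in ILL libraries. The groups did not overlap in any complex, and ILL replicate 2 had the lowest sum in each of them. No test was made on these sums.

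In complex I, 35 of 39 tested members fell, 1 rose and 3 did not pass the test, with a median log2 fold change of -0.41. The core catalytic subunits carry the flavin and the iron-sulfur clusters, and those that fell were 6 in number. NDUFV1, which holds the flavin and binds NADH, was at 130, 140 and 146 CPM in control and 83.4, 85.7 and 79.6 CPM in ILL libraries. Its log2 fold change was -0.74 ± 0.058 (standard error), with edgeR's adjusted p = 2.58e-11, with no overlap between the groups. NDUFS3 fell to a like extent, from 85.2, 95.7 and 82.1 CPM to 57.8, 47.7 and 52.1 CPM (log2 fold change -0.74, adjusted p = 1.57e-09 from edgeR). NDUFS8, NDUFS7 and NDUFS1, which bind iron-sulfur clusters, fell by 0.61, 0.41 and 0.40 on the log2 scale, and NDUFV2 by 0.20.

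Among the 32 tested accessory subunits of complex I, 29 fell and 1 rose, with a median log2 fold change of -0.42. NDUFS6, a zinc-binding subunit added late in assembly, had the lowest fold change of the complex. It was at 84.9, 80.6 and 88.2 CPM in control and at 47.2, 45.6 and 46.3 CPM in ILL libraries, and the lowest control library was well above the highest ILL library. Its log2 fold change was -0.87 ± 0.061 (standard error), with edgeR's adjusted p = 4.03e-12. NDUFB10, a subunit of the membrane arm, was at 135, 130 and 139 CPM in control and 78.2, 74.6 and 77.9 CPM with ILL, a log2 fold change of -0.81 (adjusted p = 2.04e-12 from edgeR). Other accessory subunits that fell ranged in log2 fold change down to these from -0.17. NDUFS4, an accessory subunit at the NADH-oxidizing end of the complex, was at 45.3, 44.1 and 42.6 CPM in control and 46.1, 42.3 and 50.8 CPM with ILL (log2 fold change 0.08, 95% interval -0.06 to 0.22, adjusted p = 0.34 from edgeR). NDUFB7 did not pass the test either, at a log2 fold change of -0.08.

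NDUFA4L2, a paralog of NDUFA4 known as a target of hypoxia-inducible factor, rose from almost no reads. It had 0, 6 and 0 counts in control and 23, 26 and 47 counts in ILL libraries. All ILL libraries lay above all control libraries, and the fitted log2 fold change was 3.97 ± 0.79 (standard error), with edgeR's adjusted p = 8.83e-05. The gene passed the filter on low counts only through the ILL libraries, where it is high, so it could enter the test only as a gene that differed, and it was not tested where 10 counts were asked of every library. The size of the fitted value rests on the prior count, and without control replicate 2, the only control library with reads, it was 8.04. The gene remained a minor form, at 0.566%, 0.689% and 1.07% of the summed FPKM of NDUFA4 and NDUFA4L2 in ILL libraries. NDUFA4 itself fell by 0.33 on the log2 scale. Both genes were counted with complex I by their symbols, though NDUFA4 is also described as a subunit of complex IV.

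All 4 genes of complex II fell, with a median log2 fold change of -0.52. SDHA, the flavoprotein that oxidizes succinate, was at 133, 135 and 148 CPM in control and at 85.6, 86.6 and 78.9 CPM in ILL libraries. Its log2 fold change was -0.73 ± 0.059 (standard error), with edgeR's adjusted p = 5.38e-11, with a clear gap between the groups. SDHB, the iron-sulfur subunit, had a log2 fold change of -0.48. The membrane anchors were unlike each other in size, as SDHD went from 201, 194 and 169 CPM to 138, 112 and 133 CPM (log2 fold change -0.56) while SDHC went from 106, 109 and 110 CPM to 105, 85.5 and 99.7 CPM (log2 fold change -0.17, adjusted p = 0.0242 from edgeR). The call of SDHC was lost without ILL replicate 2 (log2 fold change -0.085, adjusted p = 0.19), without control replicate 2 (adjusted p = 0.066) and without control replicate 3 (adjusted p = 0.0646). The difference between SDHC and SDHD was not tested.

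Complex III was lower throughout, with all 10 members falling and a median log2 fold change of -0.59. Its electron-carrying subunits encoded in the nucleus are the Rieske iron-sulfur protein UQCRFS1 and cytochrome c1, CYC1. UQCRFS1 was at 171, 174 and 161 CPM in control and 90.4, 91.2 and 98.8 CPM in ILL libraries, and CYC1 was at 396, 395 and 378 CPM in control and 250, 244 and 263 CPM in ILL libraries. Neither gene overlapped between the groups, with log2 fold changes of -0.85 (standard error 0.056, adjusted p = 1.07e-12) and -0.63 (standard error 0.050, adjusted p = 4.23e-11) from edgeR. UQCRH, the hinge protein between cytochrome c1 and cytochrome c, went from 202, 217 and 207 CPM to 113, 111 and 123 CPM, a log2 fold change of -0.85. UQCRHL, an intronless gene closely related to UQCRH, was at 8.96, 9.28 and 8.43 CPM in control and 4.80, 4.13 and 4.46 CPM with ILL. Its log2 fold change was -0.99 ± 0.15 (standard error), with edgeR's adjusted p = 2.03e-06, and since the pair may share reads, the 2 values are not independent. The smallest changes were those of UQCR11, UQCRB and the core protein UQCRC2, at -0.22, -0.39 and -0.45 on the log2 scale.

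Complex IV had the median nearest to the control level. Of its 13 tested members 8 fell, 2 rose and 3 did not pass the test, and the median log2 fold change was -0.25. COX8A, the smallest subunit and the member with the highest control level per length, was at 649, 670 and 618 CPM in control and at 414, 400 and 434 CPM with ILL (log2 fold change -0.63, adjusted p = 3.49e-11 from edgeR). COX5A, which faces the matrix, was at 126, 129 and 117 CPM in control and at 84.7, 83.2 and 96.1 CPM with ILL (log2 fold change -0.50, adjusted p = 1.09e-07 from edgeR). Other subunits stayed close to the control level. COX6A1 was at 232, 215 and 242 CPM in control and 228, 219 and 238 CPM with ILL, so the groups overlapped, with a log2 fold change of -0.0068 (95% interval -0.11 to 0.10, adjusted p = 0.92 from edgeR). COX7A2 and COX6C did not pass the test, at -0.02 and -0.08 on the log2 scale. COX7A2L, known for joining complexes III and IV into supercomplexes, was at 156, 154 and 139 CPM in control and 172, 155 and 186 CPM with ILL. Its groups overlapped and its log2 fold change was 0.19 (adjusted p = 0.00916 from edgeR), and this call was lost without ILL replicate 3 (0.13, adjusted p = 0.0927), without control replicate 3 (0.14, adjusted p = 0.0732) and with scaling by library size only (0.12, adjusted p = 0.0908).

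The tissue-restricted isoforms of complex IV moved in both directions. COX6B2, known as the testis form of COX6B1, was at 58.0, 53.3 and 67.5 CPM in control and 106, 123 and 116 CPM in ILL libraries. The highest control library was far below the lowest ILL library, and the log2 fold change was 0.95 ± 0.074 (standard error), with edgeR's adjusted p = 2.43e-11. Its share of the summed COX6B1 and COX6B2 FPKM was 4.25%, 3.90% and 4.72% in control and 9.40%, 11.5% and 10.2% in ILL libraries. This share rests on the lengths behind FPKM, which were 488 bases for COX6B1 and 2098 for COX6B2. By mean CPM, COX6B1 was at 309 in control and 233 with ILL, and COX6B2 at 59.6 in control and 115 with ILL. COX7A1, the heart and muscle form, fell, from 2.86, 3.59 and 3.65 CPM to 0.828, 0.378 and 0.715 CPM. These are 111, 126 and 129 counts against 29, 13 and 25 counts, and the log2 fold change was -2.39 ± 0.34 (standard error), with edgeR's adjusted p = 9.63e-07. For each share an exact two-sided permutation test gave p = 0.1, the smallest that 3 libraries against 3 allow. The other isoforms were not tested for want of reads. COX4I2 had 0 counts in all libraries, COX6A2, COX7B2 and COX8C each had 1 count in a single control library, and ATP5MGL had at most 4 counts in any library. The readthrough genes ATP5MF-PTCD1 and NDUFC2-KCTD14 were the other members not tested.

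In complex V, 17 of 18 tested members fell, with a median log2 fold change of -0.50. The largest decreases were in the ring of c subunits, which turns as protons pass. A set of 3 genes encodes the same mature c subunit with different import sequences, and all 3 fell. ATP5MC1 was at 162, 173 and 164 CPM in control and at 59.6, 54.4 and 63.5 CPM in ILL libraries, or 35.5% of control. Its log2 fold change was -1.49 ± 0.061 (standard error), with edgeR's adjusted p = 7.78e-17. ATP5MC3 was at 439, 445 and 412 CPM in control and 224, 215 and 244 CPM with ILL, its log2 fold change being -0.92 ± 0.054 (standard error) at an adjusted p = 1.18e-13 from edgeR. ATP5MC2, the least abundant of the 3 per length, was at 148, 148 and 142 CPM in control and 117, 113 and 130 CPM with ILL, its log2 fold change being -0.28 ± 0.057 (standard error) at an adjusted p = 1.05e-04 from edgeR. No control library overlapped an ILL library in any of the 3 genes. In the summed FPKM of the 3 genes, ATP5MC1 gave 57.7% ± 0.904 (SD, n = 3) in control and 44.4% ± 0.670 (SD, n = 3) with ILL. Such shares rest on the lengths behind FPKM, which were 576 bases for ATP5MC1, 2578 for ATP5MC2 and 2776 for ATP5MC3. By CPM, ATP5MC3 was the highest of the 3 in both groups. The share of ATP5MC2 went from 11.5%, 11.1% and 11.3% to 19.8%, 20.4% and 20.2%, and that of ATP5MC3 from 31.8%, 30.9% and 30.4% to 35.2%, 35.9% and 35.4%, each with an exact two-sided permutation p = 0.1, the smallest possible.

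The catalytic F1 head fell together, with all 5 genes lower and a median log2 fold change of -0.51. ATP5F1B, the catalytic beta subunit, was at 799, 809 and 840 CPM in control and 553, 538 and 565 CPM in ILL libraries. The groups were far apart for their spread, with a log2 fold change of -0.56 ± 0.047 (standard error), with edgeR's adjusted p = 9.38e-11. The alpha subunit ATP5F1A had nearly the same log2 fold change at -0.57, followed by ATP5F1C (gamma) at -0.51, ATP5F1D (delta) at -0.47 and ATP5F1E (epsilon) at -0.23. All 4 genes of the peripheral stalk, which holds the head still, fell with a median of -0.44, among them ATP5PD at -0.21, whose groups overlapped and whose call was lost without control replicate 2 (-0.15, adjusted p = 0.0717). ATP5MG, a membrane subunit, fell by 0.66. ATP5MK, a small membrane subunit linked to the pairing of ATP synthases, did not pass the test at 108, 105 and 99.1 CPM in control and 110, 102 and 122 CPM with ILL (log2 fold change 0.10, 95% interval -0.02 to 0.22, adjusted p = 0.16 from edgeR), but passed it without ILL replicate 2 (0.16, adjusted p = 0.0228). ATP5IF1, the inhibitor that blocks ATP hydrolysis, fell by 0.20 on the log2 scale, from 118, 112 and 116 CPM to 97.1, 98.3 and 107 CPM (adjusted p = 0.00336 from edgeR).

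Subunit genes are short, and fold changes moved with gene length in these libraries. The median length behind the FPKM values was 1180 bases for the tested members and 3994 bases for all genes tested. Among genes that are not members, the median log2 fold change was -0.24 for 48 genes of up to 500 bases, -0.28 for 422 genes of 500 to 1000 bases, -0.10 for 1691 genes of 1000 to 2000 bases, 0.0082 for 5961 genes of 2000 to 5000 bases and 0.05 for 4860 longer genes. Members had medians of -0.49, -0.47, -0.48, -0.31 and -0.47 in the same ranges, from 9, 27, 27, 14 and 7 genes. With the smooth trend over all genes taken out, the median of the members was -0.39. It was -0.34 for complex I, -0.44 for complex II, -0.54 for complex III and -0.36 for complex V, but -0.075 for complex IV. What moved fold changes with gene length was not tested.

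Many genes that assemble the complexes were lower too. Of 54 tested assembly factors 37 fell, 4 rose and 13 did not pass the test, against 36.9% of all genes tested that fell and 36.2% that rose, with a median log2 fold change of -0.44. For complex I, 15 of 20 fell with a median of -0.48, led by NDUFAF4 at -1.51 and NDUFAF8 at -1.26, while NDUFAF1 rose by 0.30 and TIMMDC1 by 0.25. For complex III, 5 of 6 fell with a median of -0.96, led by LYRM7, which stabilizes the Rieske protein before insertion, at -1.30 and UQCC3 at -1.19, and TTC19 was at 0.04 and did not pass. For complex IV, 14 of 22 fell and 2 rose with a median of -0.45. CMC2 had the lowest value of all assembly factors, at 52.2, 47.9 and 45.5 CPM in control and 12.1, 14.3 and 14.2 CPM with ILL (log2 fold change -1.84, adjusted p = 8.43e-16 from edgeR), followed in its list by COA7 at -1.20, while SURF1 rose by 0.29 and the copper chaperone COX17 by 0.21. For complex II, 2 of 4 fell, SDHAF3 at -1.35 and SDHAF1 at -0.44. For ATP synthase, 2 of 3 fell, TMEM70 at -0.77 and ATPAF1 at -0.42, and ATPAF2 was at 0.28 and did not pass, though it did without ILL replicate 1 (0.40, adjusted p = 0.0281). TMEM70 is also in the complex I list, and it was counted once among the 54. The rises of NDUFAF1, SURF1 and COX17 lost their calls with scaling by library size only, at adjusted p-values of 0.0863, 0.0921 and 0.0634. That of NDUFAF1 was also lost without ILL replicate 1 (adjusted p = 0.0807), ILL replicate 3 (0.0827) or control replicate 2 (0.114), and that of SURF1 without ILL replicate 2 (0.0975) or control replicate 3 (0.186).

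**Figure D2:**
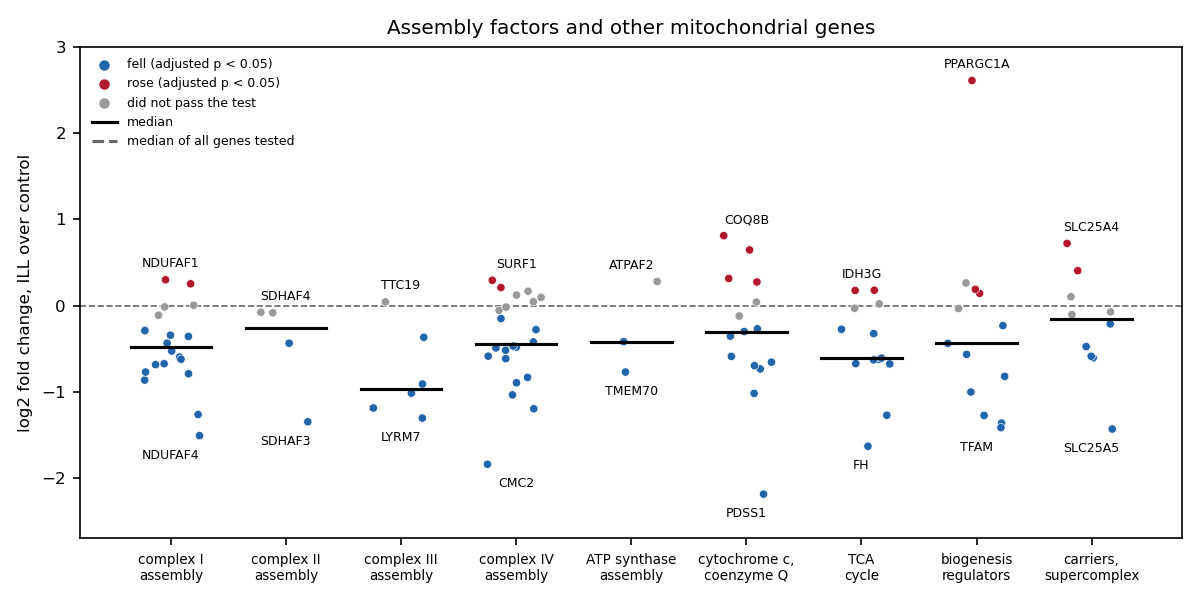
Log2 fold change (vertical axis, ILL over control) of the tested genes of 9 other mitochondrial lists (horizontal axis), with points coloured by the edgeR call and a black bar at each median. All 9 medians lie below the dashed line at the median of all genes tested, from -0.96 for complex III assembly to -0.16 for carriers and supercomplex factors.

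Electron carriers and the reactions that feed the chain also held genes that were lower with ILL. Of 15 genes of cytochrome c and coenzyme Q synthesis 9 fell and 4 rose, against 36.9% of all genes tested that fell and 36.2% that rose, with a median log2 fold change of -0.30, which was -0.41 without ILL replicate 2. PDSS1, which makes the side chain of coenzyme Q, was at 28.7, 32.0 and 29.1 CPM in control and 7.31, 6.57 and 5.83 CPM with ILL (log2 fold change -2.19, adjusted p = 2.26e-15 from edgeR). Cytochrome c itself, CYCS, fell from 522, 514 and 441 CPM to 261, 218 and 249 CPM (log2 fold change -1.02), while COQ8B and COQ10B rose by 0.81 and 0.65. Of 13 TCA cycle genes 9 fell and 2 rose with a median of -0.61, beside the same shares of all genes tested. The lowest were fumarase, FH, at 103, 111 and 120 CPM in control and 34.2, 39.5 and 33.9 CPM with ILL (log2 fold change -1.63, adjusted p = 3.03e-16 from edgeR) and IDH3A at -1.27. IDH3G rose by 0.18, and its call was lost with scaling by library size only (adjusted p = 0.117) and without control replicate 1 (0.109) or control replicate 2 (0.0549).

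Regulators of mitochondrial biogenesis went in both directions. Of 13 tested, 8 fell and 3 rose, against 36.9% of all genes tested that fell and 36.2% that rose, with a median log2 fold change of -0.44. TFAM, which packages mitochondrial DNA and acts in its transcription, was at 86.5, 90.4 and 81.9 CPM in control and 32.4, 30.4 and 34.2 CPM with ILL (log2 fold change -1.42, adjusted p = 1.40e-15 from edgeR). The coactivator PPRC1 had a log2 fold change of -1.36. Its relative PPARGC1A (PGC-1 alpha), a coactivator known for raising respiratory chain genes, was barely read at 1, 5 and 9 counts in control and 18, 42 and 30 counts with ILL. It rose with a log2 fold change of 2.61 ± 0.64 (standard error), with edgeR's adjusted p = 8.14e-04, and the log2 fold change was 3.34 without control replicate 3. Like NDUFA4L2, it passed the filter on low counts only through the ILL libraries. The gene of NRF1 itself was at 16.9, 16.7 and 17.2 CPM in control and 8.03, 8.89 and 8.41 CPM with ILL. Its log2 fold change was -1.003 (adjusted p = 1.122e-08 from edgeR). Of the GABP genes, GABPA rose with a log2 fold change of 0.189 (adjusted p = 0.0372 from edgeR). GABPB1 fell with a log2 fold change of -0.2325 (adjusted p = 0.02225 from edgeR). GABPB2 was at 0.26 and did not pass the test. A link of these changes to the motifs counted above was not tested. Among 10 carriers and supercomplex factors 5 fell and 2 rose with a median of -0.16, against 36.9% of all genes tested that fell and 36.2% that rose. Of the adenine nucleotide carriers, which exchange ATP for ADP across the inner membrane, SLC25A5 and SLC25A4 moved in opposite directions. SLC25A6 had 0 counts in every library and was not tested. SLC25A5 was at 406, 401 and 405 CPM in control and 148, 148 and 153 CPM with ILL (log2 fold change -1.43), and SLC25A4 at 41.5, 43.3 and 43.1 CPM in control and 70.9, 68.8 and 71.1 CPM with ILL (log2 fold change 0.72), with no overlap of groups in either gene. Of the outer membrane channels, VDAC1 and VDAC3 fell by 0.61 and 0.59 on the log2 scale and VDAC2 rose by 0.41.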

How the data were processed

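RNA of HCCC9810 cells was sequenced in 6 libraries (3 control, 3 ILL), grouped by their labels. Counts of reads on each gene, listed by symbol, and FPKM values were deposited by the authors, with 1 column per library. The submitters' processing notes name GRCh38 and DESeq2. The aligner, the counting program and the annotation are not given in the sources used here, so reads shared by near-identical copies (UQCRH and UQCRHL, or SDHA and its pseudogenes) could be split in unknown ways.

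After edgeR's filterByExpr, 13066 of 19470 genes remained for TMM scaling (edgeR 4.0.16 under R 4.3.3). The 2 groups were compared by its quasi-likelihood test, with p-values adjusted over all genes tested by the Benjamini-Hochberg method. CPM in the text is TMM-scaled. The biological coefficient of variation was 0.0717, so precision is set by the spread between replicates for all but the genes of few counts. Smooth length trends used mgcv 1.9.3, and the alternatives used DESeq2 1.42.0 and limma 3.58.1. The fit was tested on simulated counts. Promoters and coordinates are RefSeq's on GRCh38.p14, and the members matched by symbol.

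The members, the other gene lists, the motifs and the tests were chosen with earlier results of these data known. Named genes are the 3 highest and 3 lowest of complexes I, III, IV and V, the complex II genes, genes past the fold cutoff, catalytic, F1, c ring, inhibitor and isoform genes, and at most the 2 highest and 2 lowest of each other list. VDAC3, NRF1, GABPA and GABPB1 were added after their values were seen and are not among the 75 named genes counted below. Alternatives were other scalings and filters, the Wald test of DESeq2, a block for the replicate number, leaving out each library, log2 of FPKM plus 1 or 0.1, removal of the length trend, and a stricter adjusted p-value of 0.01. NDUFA4 counted with complex IV was added after the data were seen. Values of a few genes were left out of the text.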

Additional observations from a re-analysis of the deposited data

How the results depend on the processing

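Direction held for every median, sum and called named gene under the alternatives run. The sign changed under some of them for COX6A1, SDHAF4 and TTC19, which did not pass the test. Of 75 named genes, 63 stayed on their side of the threshold wherever they were fitted, which leaves out the stricter count filter and the filtered FPKM fits for NDUFA4L2 and PPARGC1A. Of 29 counts, medians and sums, 8 stayed throughout within the pooled SD between libraries of a group, or within 1.5 times for counts. Scaling by library size only, which moves the median of all genes to -0.07, gave medians of -0.53 for all members, -0.48 for complex I, -0.65 for III, -0.32 for IV, -0.57 for V, -0.55 and -0.51 for complex I and IV assembly, -0.68 for the TCA cycle and -0.23 for carriers, and log2 ratios of summed levels of -0.49 (I), -0.61 (III), -0.32 (IV), -0.57 (V) and -0.50 (all). With log2 of FPKM plus 1 the medians were -0.47 (I), -0.65 (III), -0.32 (IV), -0.57 (V), -0.56 (complex I assembly), -0.85 (complex III assembly), -0.67 (TCA) and -0.22 (carriers), and with plus 0.1 they were -0.53 (all), -0.49, -0.65, -0.32, -0.57, -0.59 (complex I assembly), -0.50 (complex IV assembly), -0.68 and -0.23. Either pseudocount left 1 member that rose, since the filter removed NDUFA4L2 and COX7A2L lost its call. Plus 1 without a filter gave -0.47 (I), -0.65 (III), -0.56 (V), -0.85 (complex III assembly), -0.20 (ATP synthase assembly), -0.67 (TCA), -0.32 (biogenesis) and -0.22 (carriers). Removing the length trend gave -0.39 (all), -0.34, -0.54, -0.075 and -0.36 for I, III, IV and V, -0.17 and -0.36 for complex II and IV assembly and -0.54 for the TCA cycle. Without a filter on low counts complex IV was at -0.34 and ATP synthase assembly at -0.077, and DESeq2's Wald test put the latter at -0.063, as a further gene of few counts entered that list. Leaving out 1 library at a time gave 71 to 75 members that fell, 2 to 4 that rose and 3 to 5 past the fold cutoff, and medians of -0.61 to -0.56 (complex III), -0.41 to -0.25 (coenzyme Q) and -0.62 to -0.56 (TCA).

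Replicate numbers did not pair the samples, as same-numbered libraries had deviations correlated at 0.0107, -0.0218 and -0.0179, and with the replicate number as a block 74 members fell and 3 rose. Genes of few counts limit the folds of NDUFA4L2, COX7A1 and PPARGC1A. With the FPKM fit without a filter PPARGC1A was at 0.087 and NDUFA4L2 at 0.73, since a pseudocount of 1 is above their levels.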
